A study of Mus musculus with 14 samples.

Results

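Kidneys of mice given the protein labelled MnDps were compared with kidneys of mice given the protein labelled Dps, both taken 4 h after an intravenous dose of 18 mg/kg. The comparison used 6 of the 14 RNA-seq libraries of the series, 3 per protein, and covered every gene of the table. All animals were male C57BL/6J mice, and no genotype other than the strain is given. The series also holds 2 MnDps and 3 Dps kidney libraries at 24 h, and 3 libraries from mice given vehicle, whose time is not given. These other groups served as context and shared the estimate of spread. The labels do not spell out MnDps or Dps, do not say how the preparations differed beyond the name, and give no age. They do not say that each library came from its own animal either, so the p-values rest on the spread from library to library, which may be technical. The title describes protein nanocages aimed at the proximal tubule, and this comparison asks what the MnDps form did beyond the Dps form at the earlier time.

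As background, the proximal tubule takes back most of what the glomerulus filters. Filtered proteins are caught at its brush border by the receptor megalin (gene Lrp2) with cubilin (Cubn) and amnionless (Amn), enter by clathrin-coated endocytosis and are broken down in lysosomes. Metals are bound by metallothioneins and ferritin and moved by transporters of the Slc30, Slc39 and Slc11 families, while injured tubules are known to make Havcr1 and Lcn2. Whole kidney RNA mixes all of these cells, and fewer cells of a type and less RNA per cell cannot be told apart in it. The tissue label held against defining genes, since all 51 proximal tubule markers passed the filter on low counts, and the androgen-regulated tubule gene Kap alone took 4.47 to 5.45 percent of all counts in MnDps kidneys and 3.32 to 3.82 percent in Dps kidneys.

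The MnDps libraries held 23410617, 26490966 and 22228392 counts, and the Dps libraries 42074942, 40435147 and 17785142. The third MnDps library stood apart on the leading principal component, which carried 57.7 percent of the variance, at −47.3 against −14.4 and −18.5 for the other MnDps libraries, while the Dps libraries sat between 22.5 and 30. Calls that were lost without it are named as such beside the gene or list.

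The proteins differed in many genes at 4 h, mostly by less than 2-fold. Fold changes are given as log2 of MnDps over Dps, each ± its standard error (SE) across libraries. Of 14854 genes tested with edgeR's quasi-likelihood test, 3085 were higher in MnDps than in Dps kidneys (20.8 percent of those tested) and 3073 were lower (20.7 percent) at a Benjamini-Hochberg adjusted p under 0.05, together 6158 genes or 41.5 percent. Without the third MnDps library the counts were 2152 higher and 2518 lower. Every count of list members called in this uncorrected comparison is to be read beside the shares of 20.8 and 20.7 percent. The difference exceeded 2-fold for 100 of the higher genes (0.673 percent of those tested) and 292 of the lower genes (1.97 percent). The MnDps libraries all lay above the Dps libraries for 3938 genes (26.5 percent) and all below them for 3938 (26.5 percent). A lack of overlap between the groups is therefore common in this comparison. Against vehicle, 6768 genes (45.6 percent, 22.9 percent higher and 22.7 percent lower) were called in MnDps kidneys and 2168 (14.6 percent, 8.33 percent higher and 6.27 percent lower) in Dps kidneys; these comparisons share their controls.

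Direction followed transcript length. Genes were put in 5 classes of equal size by their longest transcript. In the shortest class, 55 to 1899 nt, the median log2 fold change was 0.41, and 1530 of 2956 genes were higher while 49 were lower. In the longest class, from 5155 nt, the median was −0.40, with 82 of 2950 genes higher and 1682 lower. Across genes, which are not independent replicates, Spearman's rho between length and log2 fold change was −0.625. The MnDps libraries leaned to short transcripts against the vehicle mean (rho −0.373, −0.443 and −0.501 across genes), whereas the Dps libraries leaned the other way (0.202, 0.109 and 0.156). The vehicle libraries themselves ran between −0.322 and 0.348, and the 24 h libraries between −0.499 and −0.301. The source of the trend was not tested.

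**Figure D1:**
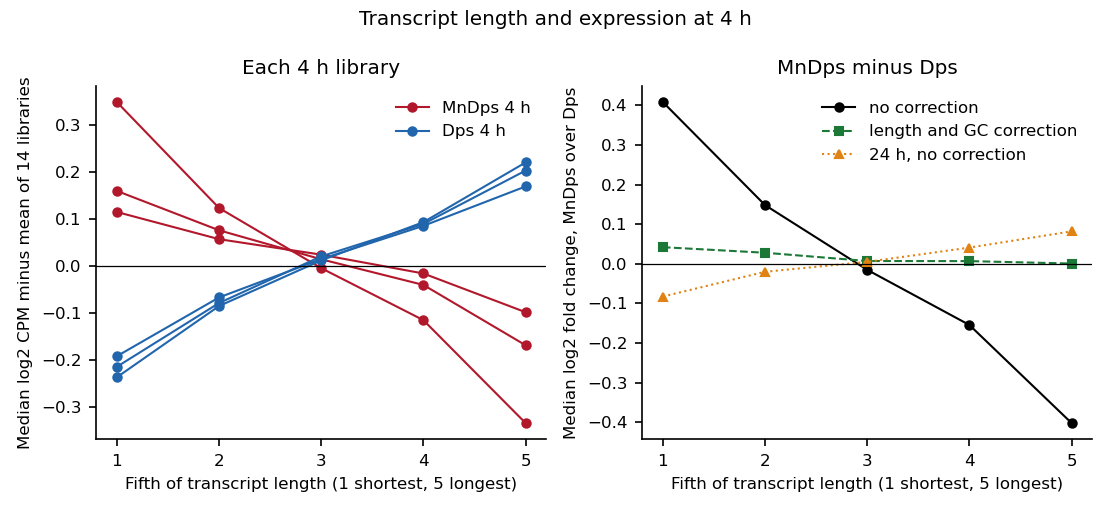
Left, each line is one 4 h library: the median over genes of its log2 CPM minus the mean of all 14 libraries (y) in each of 5 transcript length classes, shortest to longest (x). Right, the median log2 fold change of MnDps over Dps (y) in the same classes at 4 h, at 4 h after the length and GC correction, and at 24 h. The uncorrected 4 h medians run from 0.41 in the shortest class to −0.40 in the longest, and the corrected medians stay near 0.

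Because length moved with the proteins, each call was read beside 2 corrected fits, in which a smooth trend of each library on length and GC content was taken out, using either the longest or the principal transcript of each gene. The longest-transcript correction left 2198 genes higher and 1431 lower (14.8 and 9.63 percent), and the principal-transcript correction 1982 and 1304 (13.3 and 8.78 percent). In total 1174 genes (7.9 percent) were higher and 941 (6.33 percent) lower in all 3 fits, and these still followed length. In the shortest class 351 were higher and 48 lower, and in the longest class 70 were higher and 347 lower. A call in all 3 fits includes the uncorrected call, so part of this pattern is set by the choice. Across genes, rho between length and the log2 fold change corrected by the longest transcript was −0.0342. Counts of list members in all 3 fits are to be read beside the shares of 7.9 and 6.33 percent. The longest-transcript correction turned round 59 calls.

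The machinery of protein synthesis, respiration and protein breakdown was higher in MnDps kidneys. Of 78 tested cytosolic ribosomal protein genes, 77 were higher and 0 lower, with a median log2 fold change of 0.78. Nuclear genes of the respiratory chain and ATP synthase were higher in 64 of 68 cases with 0 lower and a median of 0.68, and proteasome genes in 30 of 36 with 0 lower and a median of 0.52. The median over all genes tested was −0.01. These are also short transcripts, with list medians of 1076, 1232 and 1919 nt against 3289 nt for all genes tested. After both corrections, 64 ribosomal, 37 respiratory and 17 proteasome genes were still higher and 0 of the 3 lists' genes lower in all 3 fits, and the medians were 0.37, 0.25 and 0.25 with the longest transcript and 0.31, 0.21 and 0.22 with the principal one.

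Levels are given below as CPM, a gene's counts scaled to its library's adjusted total, which can be compared between libraries but not between genes of different length. Rpl38, a protein of the large ribosomal subunit, had 141, 146 and 181 CPM in MnDps kidneys, against 77.4, 75.7 and 80.6 CPM in Dps kidneys. The groups did not overlap, and the MnDps libraries were higher by 1.005 ± 0.10 (SE) on the log2 scale (0.48 and 0.44 after the corrections). Rps15, a small-subunit protein, showed the same separation, with 400.5, 402 and 540.1 CPM in MnDps kidneys, against 212, 230.5 and 237 CPM in Dps kidneys (log2 fold change 0.98 ± 0.12, adjusted p = 7.12e-05). Rps12 and Rps27a, which encodes a ubiquitin fused to a ribosomal protein, were higher by 0.97 ± 0.12 and 0.94 ± 0.12. Ribosomal protein genes have many processed pseudogenes, so their counts carry some uncertainty.

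In the respiratory chain, Uqcr11, a subunit of complex III, had 289, 322 and 405 CPM in MnDps kidneys, against 159, 175 and 169.6 CPM in Dps kidneys. All 3 MnDps libraries lay above all 3 Dps libraries (log2 fold change 1.01 ± 0.12, adjusted p = 7.12e-05), and the third MnDps library was highest. Ndufs6 of complex I was higher by 0.91 ± 0.11 and Cox6c of complex IV by 0.77 ± 0.10. For the proteasome, Psmb4, a subunit of its catalytic core, had 251, 266 and 334 CPM in MnDps kidneys, against 157, 178 and 159 CPM in Dps kidneys, again without overlap. Its log2 fold change was 0.79 ± 0.10, adjusted p = 7.12e-05, and that of Pomp, the chaperone that assembles the core, was 0.77 ± 0.11. Psma1, another core subunit, was higher uncorrected (0.46 ± 0.07) but not past the threshold after either correction (0.09, adjusted p = 0.288, and 0.14, adjusted p = 0.11).

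Beside vehicle, the median log2 difference of the ribosomal list was 0.57 in MnDps kidneys and −0.21 in Dps kidneys, of the respiratory list 0.42 and −0.21, and of the proteasome list 0.38 and −0.13. Of the ribosomal genes, 74 were higher in MnDps kidneys than in vehicle kidneys and 2 were lower in Dps kidneys. Over all genes tested, 22.9 percent were higher than vehicle in MnDps kidneys and 6.27 percent lower in Dps kidneys. The comparisons with vehicle carry no length correction.

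**Figure D2:**
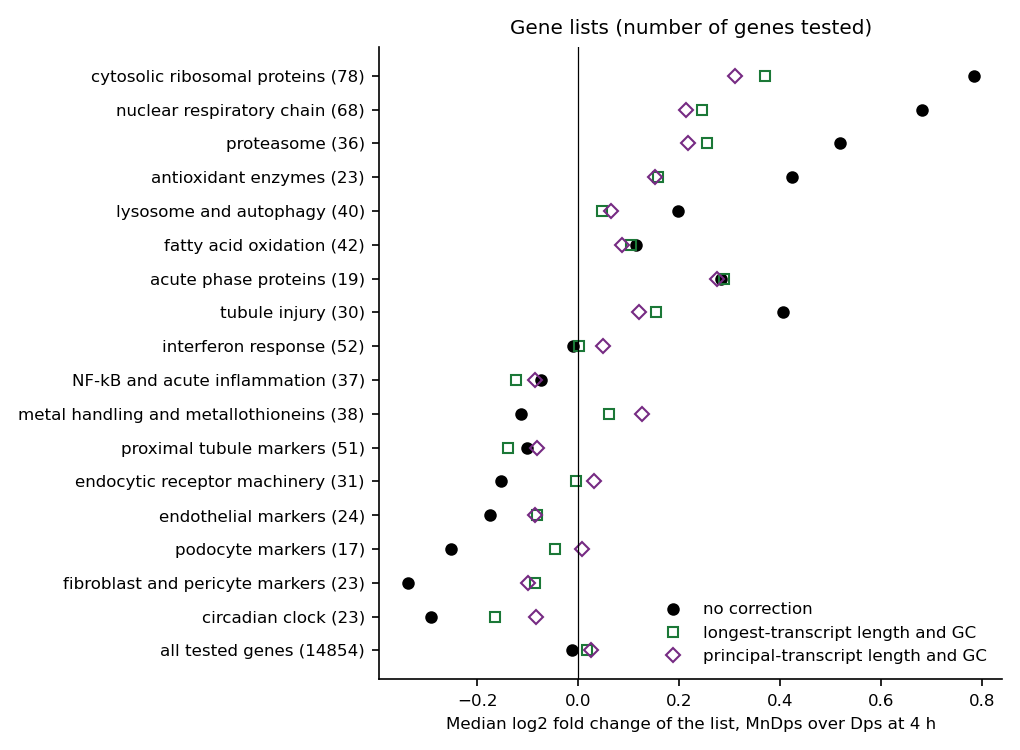
Median log2 fold change of MnDps over Dps at 4 h (x) for 18 gene lists (y), uncorrected, with the longest-transcript length and GC correction, and with the principal-transcript correction. Ribosomal, respiratory and proteasome genes stay to the right of 0 in all 3 fits, with corrected medians from 0.21 to 0.37, while the interferon response medians stay near 0.

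The largest falls were in single genes rather than in one of the lists. The 15 largest falls and the 15 largest rises were taken only from genes without overlap between the libraries of the proteins. They also had to pass the threshold with the longest-transcript correction, so both traits are fixed by the choice. Among the 14 falls with a length, 3 were shorter than the median gene. Zfp366, a zinc finger protein of antigen-presenting cells, had 0.261, 0.194 and 0.145 CPM in MnDps kidneys, against 1.13, 1.43 and 1.19 CPM in Dps kidneys. The log2 fold change was −2.61 ± 0.40, adjusted p = 0.000161. Shroom4 (chromosome X, 6399854 to 6637448, GRCm38), an actin-binding protein, had 5.21, 3.34 and 2.17 CPM in MnDps kidneys, against 21.6, 16.1 and 21.2 CPM in Dps kidneys. That is 5.45-fold lower in MnDps kidneys (log2 fold change −2.45 ± 0.36, adjusted p = 0.000258), and −1.99 and −2.20 after the corrections. Vehicle kidneys had 14.4, 10.3 and 22 CPM.

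Xylt1, which starts glycosaminoglycan chains on proteoglycans, had 1.13, 1.44 and 0.579 CPM in MnDps kidneys, against 5.45, 4.49 and 6.24 CPM in Dps kidneys (log2 fold change −2.32 ± 0.37, adjusted p = 0.000238). Pdpr, a regulator of pyruvate dehydrogenase phosphatase, had 6.56, 4.66 and 2.8 CPM in MnDps kidneys, against 19.8, 14.2 and 17.7 CPM in Dps kidneys (log2 fold change −1.87 ± 0.27, adjusted p = 0.00018). In both, the third MnDps library was lowest and the groups stood apart. Itgb8, an integrin subunit that activates TGF-beta, had 10.3, 7.69 and 4.87 CPM in MnDps kidneys, against 35.2, 22.7 and 20.4 CPM in Dps kidneys (log2 fold change −1.78 ± 0.27, and −1.23 after the longest-transcript correction). Among the same largest falls were the transcription factor Klf7 (−1.83 ± 0.36), the dystrophin-binding Sntb1 (−1.83 ± 0.30), the amino acid transporter Slc7a10 (−1.74 ± 0.44) and Zbed6, a repressor of Igf2 (−2.15 ± 0.43). All of these are log2 fold changes with adjusted p under 0.05 in all 3 fits.

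The remaining large falls were in genes at about 1 to 3 CPM or less: Vmn2r57 (−2.10 ± 0.43), D830031N03Rik (−1.99 ± 0.48), Sycp3 (−1.92 ± 0.47), 9930111J21Rik1 (−1.92 ± 0.46) and Serpina3c (−1.83 ± 0.55). Zfp366, Klf7, Sntb1 and Slc7a10 above lay as low, with means of 1.25, 1.62, 1.44 and 1.06 CPM in Dps kidneys. The fall of Serpina3c was −0.89 (adjusted p = 0.181) without the second Dps library, at 2.75 CPM against 0.779 and 0.759 CPM in the others, and −1.68 (adjusted p = 0.0559) without the third MnDps library. Zbed6 lies wholly within another gene of the same strand, Gm38394, and 52.2 percent of the exon bases of Sycp3 overlap Chpt1 on the opposite strand, so the reads of these pairs may be mixed; the strand setting of the counting is not given in the sources used here. Of the 15 largest falls, 11 were also called below vehicle in MnDps kidneys and 1 above it, while 4 were called above vehicle in Dps kidneys and 0 below. Over all genes tested, 22.7 percent were called below vehicle in MnDps kidneys and 8.33 percent above it in Dps kidneys. The falls were picked for low MnDps and high Dps values in these same libraries, so their counts are partly set by the choice.

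**Figure D3:**
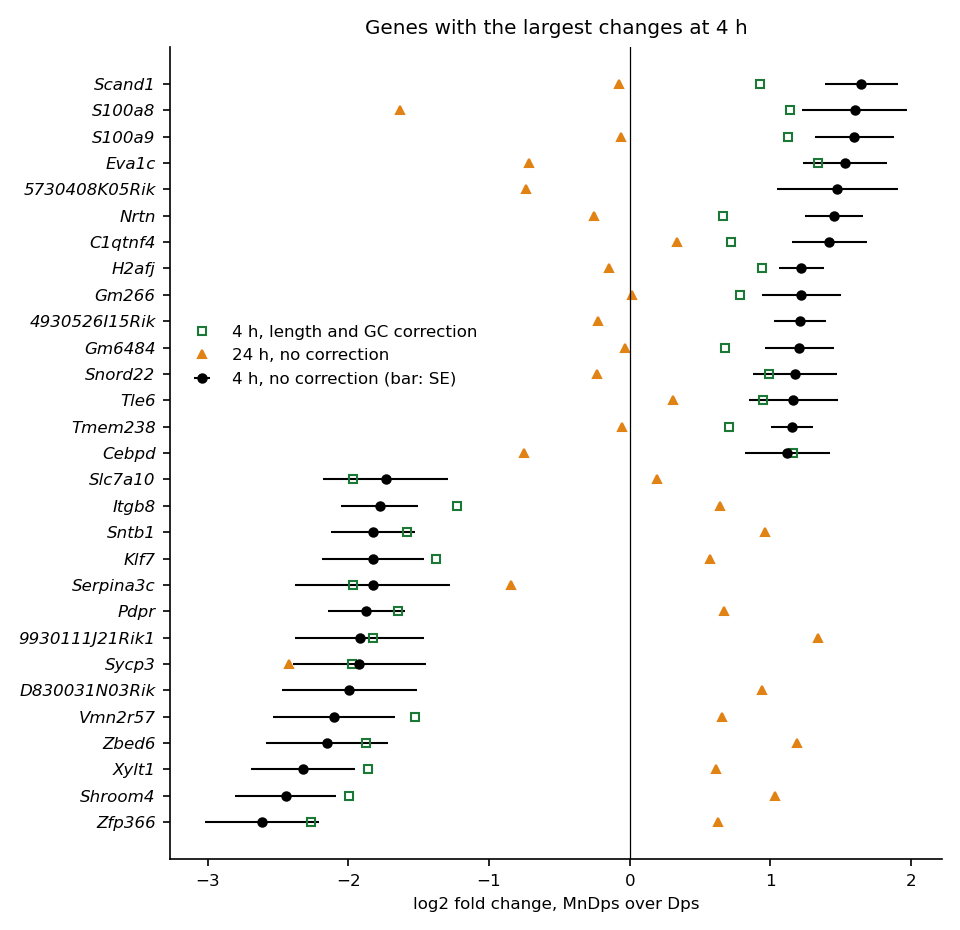
Log2 fold change of MnDps over Dps (x) for the 15 largest rises and 14 of the 15 largest falls past the threshold (y). Circles with bars are the 4 h values ± SE, squares the 4 h values after the longest-transcript correction (absent for the 3 genes with no length), triangles the 24 h values. The genes were chosen for a 4 h difference past the threshold also after that correction, so the side of the squares is fixed by the choice. No gene shown was called at 24 h.

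Among the 15 rises chosen as above, the largest was that of Scand1, a small SCAN-domain protein related to zinc finger factors. It had 84.2, 80.5 and 141 CPM in MnDps kidneys, against 24, 36.5 and 37.6 CPM in Dps kidneys. All MnDps libraries lay at least as high as 80.5 CPM and no Dps library exceeded 37.6 CPM (log2 fold change 1.65 ± 0.26, adjusted p = 0.00055). The corrections brought it to 0.93 and 0.96, still past the threshold. Of its exon bases, 40.4 percent overlap Cnbd2 on the opposite strand. Scand1 is a short gene of 759 nt, and 12 of the 13 largest rises with a length were shorter than the median gene.

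Nrtn, the neurotrophic factor neurturin, had 9.42, 10.9 and 13.8 CPM in MnDps kidneys, against 2.81, 5 and 4.83 CPM in Dps kidneys (log2 fold change 1.45 ± 0.21, adjusted p = 9.86e-05). H2afj, a variant of histone H2A, had 129, 134 and 200.2 CPM in MnDps kidneys, against 57.4, 69.3 and 72.3 CPM in Dps kidneys (log2 fold change 1.22 ± 0.16, adjusted p = 9.86e-05). For both genes the groups did not overlap. Vehicle kidneys had 5.87, 6.48 and 7.51 CPM of Nrtn, which differed from vehicle by 0.77 ± 0.20 in MnDps kidneys and −0.68 ± 0.21 in Dps kidneys on the log2 scale, both past the threshold. Eva1c, a transmembrane protein, was higher by 1.53 ± 0.30, C1qtnf4, a secreted relative of C1q, by 1.42 ± 0.26, and the membrane protein Tmem238 by 1.15 ± 0.15. The co-repressor Tle6 (1.16 ± 0.31), Gm266 (1.22 ± 0.28), 5730408K05Rik (1.47 ± 0.43), 4930526I15Rik (1.21 ± 0.18) and Gm6484 (1.20 ± 0.24) complete the largest rises together with the 2 calgranulins, Cebpd and Snord22. Gm6484 missed the threshold with the principal transcript (adjusted p = 0.0524). Snord22, a small nucleolar RNA (1.17 ± 0.30), lies wholly within the exons of its host Snhg1.

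Cebpd, a C/EBP transcription factor of the acute phase, had 10.4, 8.62 and 24.1 CPM in MnDps kidneys, against 6.73, 6.38 and 6.62 CPM in Dps kidneys. The third MnDps library, well above the other MnDps libraries, carried much of the difference, and the log2 fold change of 1.12 ± 0.30 became 0.51 (adjusted p = 0.0267) without it.

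Metal handling genes were called in both directions at about the shares of all genes tested (20.8 and 20.7 percent). Of 38 tested genes, 7 were higher and 8 lower in MnDps kidneys, with a median log2 fold change of −0.11 (0.06 and 0.13 after the corrections). In all 3 fits 3 were higher, namely Fth1, Slc30a9 and 1 more gene of the list, and 2 lower, namely Atp7a and Slc39a10. Without the third MnDps library 4 were higher.

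Mt1 and Mt2, which bind zinc, copper and cadmium, are known targets of the metal-sensing factor MTF1, whose binding element has the core TGCACNC or TGCGCNC. Their promoters are shown because they carry that core several times. The windows run from 250 bases before to 50 bases after the start site on the plus strand (RefSeq, GRCm38.p6), chr8:94178839-94179138 for Mt1 and chr8:94172368-94172667 for Mt2, and capitals mark matches to either form of the core on either strand.
Mt1 promoter: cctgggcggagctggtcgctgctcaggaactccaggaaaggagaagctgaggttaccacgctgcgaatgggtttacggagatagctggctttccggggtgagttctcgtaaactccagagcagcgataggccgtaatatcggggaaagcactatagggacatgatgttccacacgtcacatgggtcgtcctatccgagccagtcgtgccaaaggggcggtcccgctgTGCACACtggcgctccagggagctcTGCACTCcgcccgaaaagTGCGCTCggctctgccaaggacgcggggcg
Mt2 promoter: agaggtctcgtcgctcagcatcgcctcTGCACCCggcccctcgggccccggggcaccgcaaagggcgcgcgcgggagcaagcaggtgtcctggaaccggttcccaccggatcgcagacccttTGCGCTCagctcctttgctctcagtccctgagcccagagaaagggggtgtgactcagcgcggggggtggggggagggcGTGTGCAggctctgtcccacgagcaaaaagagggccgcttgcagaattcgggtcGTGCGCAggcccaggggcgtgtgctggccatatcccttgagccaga
The Mt1 window holds 3 matches and the Mt2 window 4. Of 32851 RefSeq windows of this length, 25.7 percent hold at least 1 match, 1.97 percent at least 3 and 0.517 percent at least 4. A match is a description of these letters and not a measured site.

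Mt1 had 161, 132 and 259.9 CPM in MnDps kidneys, against 70.2, 105 and 80.2 CPM in Dps kidneys. The groups did not overlap, the third MnDps library was highest, and the log2 fold change was 1.11 ± 0.25, adjusted p = 0.00451. It was 0.64 (adjusted p = 0.0398) with the longest transcript and 0.53 (adjusted p = 0.0905) with the principal one. Beside vehicle, at 70.6, 76.5 and 65.4 CPM, Mt1 differed by 1.38 ± 0.25 in MnDps kidneys and 0.27 ± 0.25 in Dps kidneys.

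Mt2 had 107, 87 and 227 CPM in MnDps kidneys, against 60.1, 89.3 and 63.8 CPM in Dps kidneys. One MnDps library lay below the highest Dps library, so the groups overlapped. The log2 fold change of 0.98 ± 0.33, adjusted p = 0.0379, was 0.42 (adjusted p = 0.18) without the third MnDps library and missed the threshold after both corrections (0.42 and 0.39). It missed the threshold also without the first or the third Dps library (adjusted p = 0.126 and 0.109). The Mt2 exons overlap an antisense gene over 73.5 percent of their bases.

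Ferritin heavy chain Fth1, which stores iron, had 5587, 6095 and 7615 CPM in MnDps kidneys, against 3975, 4167 and 3892 CPM in Dps kidneys. No overlap was seen, and the log2 fold change was 0.68 ± 0.10, adjusted p = 9.95e-05 (0.48 and 0.36 after the corrections). The light chain Ftl1 was higher uncorrected (0.63 ± 0.09) but missed the threshold after the corrections (0.15 and 0.14). Ferritin genes have processed pseudogenes, so these counts carry some uncertainty.

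The zinc transporter Slc30a9 was higher by 0.24 ± 0.07, and by 0.59 and 0.64 after the corrections, although not past the threshold without the third MnDps library (0.15, adjusted p = 0.0861). Steap1, a metalloreductase relative, was higher by 0.94 ± 0.24 uncorrected only. The copper exporter Atp7a had 19.5, 19 and 10.4 CPM in MnDps kidneys, against 33.9, 28.4 and 34.7 CPM in Dps kidneys, and the zinc importer Slc39a10 had 28.4, 26 and 17.7 CPM in MnDps kidneys, against 44.7, 40.8 and 39.4 CPM in Dps kidneys. Every MnDps library lay below every Dps library for both genes (log2 fold changes −0.98 ± 0.18 and −0.79 ± 0.13).

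The main transporters of manganese, zinc and iron did not pass the threshold. The log2 fold changes were −0.09 ± 0.09 for the zinc exporter Slc30a1, 0.03 ± 0.10 and −0.14 ± 0.15 for the zinc and manganese importers Slc39a8 and Slc39a14, −0.23 ± 0.10 for the divalent metal importer Slc11a2 and −0.28 ± 0.16 for the transferrin receptor Tfrc. Several of these change sign with the correction or a left-out library, and Tfrc passed without the second MnDps library (−0.49, adjusted p = 0.0186) or the third Dps library (−0.43, adjusted p = 0.0413). The manganese exporter Slc30a10, with 3 counts in all libraries together, was not tested.

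The interferon response, which both proteins shared, hardly told them apart. Of 52 interferon-stimulated genes, 4 were higher and 8 lower in MnDps kidneys, with a median log2 fold change of −0.01. Against vehicle all 52 were higher in both MnDps and Dps kidneys, with medians of 3.82 and 3.72. Over all genes tested, 22.9 percent were higher than vehicle in MnDps kidneys and 8.33 percent in Dps kidneys. The 4 higher genes, Isg15, Ifi35, Psmb8 and Bst2, missed the threshold after both corrections, and of the 8 lower genes only Gbp7 was called in all 3 fits. When one library was left out, between 0 and 8 were higher, with 0 without the third MnDps or the first Dps library.

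Isg15, a ubiquitin-like protein joined to others in antiviral defence, had 259.7, 266 and 359 CPM in MnDps kidneys, against 159.5, 237 and 167 CPM in Dps kidneys. Vehicle kidneys had 3.73, 5.39 and 3.31 CPM, so the groups differed little beside their common distance from vehicle. Its log2 fold change was 0.65 ± 0.19, adjusted p = 0.0143, and 0.14 (adjusted p = 0.542) after the longest-transcript correction. Without the third MnDps library it was 0.46 (adjusted p = 0.1), and it also missed the threshold without the first or the third Dps library. Gbp7, a guanylate-binding protein that acts on pathogen vacuoles, had 128, 99.7 and 85.4 CPM in MnDps kidneys, against 229.6, 233 and 166 CPM in Dps kidneys, and 18.2, 17 and 14 CPM in vehicle kidneys. All MnDps libraries lay below all Dps libraries (log2 fold change −1.01 ± 0.16, adjusted p = 0.000373; −0.64 and −0.58 after the corrections). Ifit2, which binds viral RNA (−0.58 ± 0.15, and −0.37 without the second Dps library), Samd9l (−0.52 ± 0.09) and Dtx3l, a ubiquitin ligase (−0.63 ± 0.12), were lower uncorrected and not in all 3 fits.

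NF-kB and acute inflammation genes gave 2 higher and 6 lower of 37, and 0 higher without the third MnDps library. The cytokine Tnf had 0.565, 0.466 and 0.675 CPM in MnDps kidneys, against 1.23, 1.35 and 0.868 CPM in Dps kidneys. The libraries did not overlap, and at this low level the log2 fold change of −1.05 ± 0.35, adjusted p = 0.0229, held after the corrections (−1.36 and −1.31) but missed the threshold without the first or second library of either protein, with adjusted p from 0.0538 to 0.0807. Rel (−1.64 ± 0.45), Nfkb1 (−0.32 ± 0.08), both NF-kB subunits, and the prostaglandin synthase Ptgs2 (−1.24 ± 0.36) were lower uncorrected only. Rel lay under 1 CPM, with means of 0.190 CPM in MnDps kidneys and 0.608 CPM in Dps kidneys, so single reads limit it. Ier3, an early response gene, was higher uncorrected (1.12 ± 0.28), and not without the third MnDps library (0.88, adjusted p = 0.0555). Of 22 chemokine genes, 2 were higher and 1 lower, 0 of them in all 3 fits, and 0 to 4 were higher when one library was left out.

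Acute phase genes gave 5 higher and 0 lower of 19, with a median of 0.28, but 0 higher without the third MnDps library. Saa3, a serum amyloid A, had 6.51, 4.54 and 9.5 CPM in MnDps kidneys, against 4.13, 3.89 and 2.55 CPM in Dps kidneys (log2 fold change 0.93 ± 0.28, adjusted p = 0.0139). The third MnDps library was highest, the adjusted p was 0.115 without it and 0.0634 without the third Dps library. Itih3, Fgg, Saa1 (1.77 ± 0.67) and Hpx (1.64 ± 0.58) were the others, and only Itih3 (0.93 ± 0.29) was called in all 3 fits. Each of these 4 was also lost without the third MnDps library.

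The calgranulins S100a8 and S100a9, which neutrophils and monocytes release as a pair, were higher. S100a9 had 4.56, 6.18 and 8.59 CPM in MnDps kidneys, against 2.01, 2.49 and 1.79 CPM in Dps kidneys. In vehicle kidneys S100a9 had 0.165, 0.0573 and 0 CPM. Its log2 fold change was 1.60 ± 0.28, adjusted p = 0.0004 (1.12 and 1.12 after the corrections), and S100a8 was higher by 1.60 ± 0.37. These were the only members past the threshold among 7 tested of 18 neutrophil markers. The summed CPM of the 7, most of it from Lcn2, was 52.0 to 148.6 in MnDps kidneys, 36.3 to 61.0 in Dps kidneys and 4.47 to 6.64 in vehicle kidneys. Without Lcn2 and the calgranulins the other 4 summed to 4.47 to 5.89 CPM in MnDps kidneys, 3.36 to 5.17 CPM in Dps kidneys and 1.38 to 2.64 CPM in vehicle kidneys, so the MnDps and Dps ranges overlapped. The granule protease gene Elane was at 0 in all 6 libraries, and the part of neutrophil number in the calgranulin difference was not tested.

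Of 23 macrophage and monocyte markers, 5 were higher and 3 lower, or 1 and 1 without the third MnDps library. Mertk, a receptor for dying cells, had 39.6, 38 and 35.7 CPM in MnDps kidneys, against 62.3, 58.2 and 61 CPM in Dps kidneys and was lower in every MnDps library (log2 fold change −0.68 ± 0.10, adjusted p = 0.000132; −0.53 and −0.47 after the corrections). C1qb, a C1q chain, was higher uncorrected (0.68 ± 0.18) and missed the threshold after the corrections. Cd163, at 0.0868, 0.117 and 0 CPM in MnDps kidneys, against 0.496, 0.604 and 0.0542 CPM in Dps kidneys, was called lower in spite of overlapping libraries, and not without the third MnDps or the first or second Dps library (adjusted p = 0.0651, 0.0539 and 0.0728).

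More proximal tubule markers were lower than higher. Of 51 tested, 7 were higher and 17 lower in MnDps kidneys, with a median log2 fold change of −0.10, and 1 and 4 in all 3 fits. Without the first Dps library 10 were lower. Over all genes tested the shares were 20.8 and 20.7 percent, and 7.9 and 6.33 percent in all 3 fits. The summed CPM of the list went the other way, at 107000 to 123700 in MnDps kidneys and 94910 to 102400 in Dps kidneys. In vehicle kidneys the sum was 103600 to 105600 CPM. Kap is on the list and took 4.47 to 5.45 percent of all counts in MnDps kidneys and 3.32 to 3.82 percent in Dps kidneys. A sum without Kap was not made, so the sum does not give the direction of the other markers. Slc9a3 (chromosome 13, 74121457 to 74169442, GRCm38), the brush border sodium-proton exchanger that takes back sodium and bicarbonate, had 16.5, 14.7 and 9.26 CPM in MnDps kidneys, against 44.4, 40.6 and 49 CPM in Dps kidneys. The highest MnDps library held less than the lowest Dps library by a wide margin, and the difference of 3.3-fold was the largest fall on the marker list (log2 fold change −1.72 ± 0.21, adjusted p = 8.46e-05; −1.49 and −1.76 after the corrections). Vehicle kidneys had 41.8, 41.3 and 63.2 CPM, so Slc9a3 differed from vehicle by −1.86 ± 0.21 in MnDps kidneys and −0.14 ± 0.20 in Dps kidneys.

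The basolateral bicarbonate cotransporter Slc4a4 had 589, 552 and 486 CPM in MnDps kidneys, against 1004, 795 and 873 CPM in Dps kidneys (log2 fold change −0.72 ± 0.10, adjusted p = 0.000109). The brush border peptidase Enpep had 109, 109 and 94 CPM in MnDps kidneys, against 159, 142 and 148 CPM in Dps kidneys (log2 fold change −0.52 ± 0.07, adjusted p = 9.41e-05). Both separated fully, as did the sulfate transporter Slc26a1 (−0.59 ± 0.12), and these 3 with Slc9a3 were lower in all 3 fits. The glucose transporter Slc2a2 was lower uncorrected (−0.60 ± 0.10) and missed the threshold with the principal transcript (adjusted p = 0.0872). Kap was higher by 0.58 ± 0.11 uncorrected and by 0.14 (adjusted p = 0.342) after the longest-transcript correction. The phosphate transporter Slc34a1 did not pass (−0.23 ± 0.09, adjusted p = 0.0507).

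**Figure D4:**
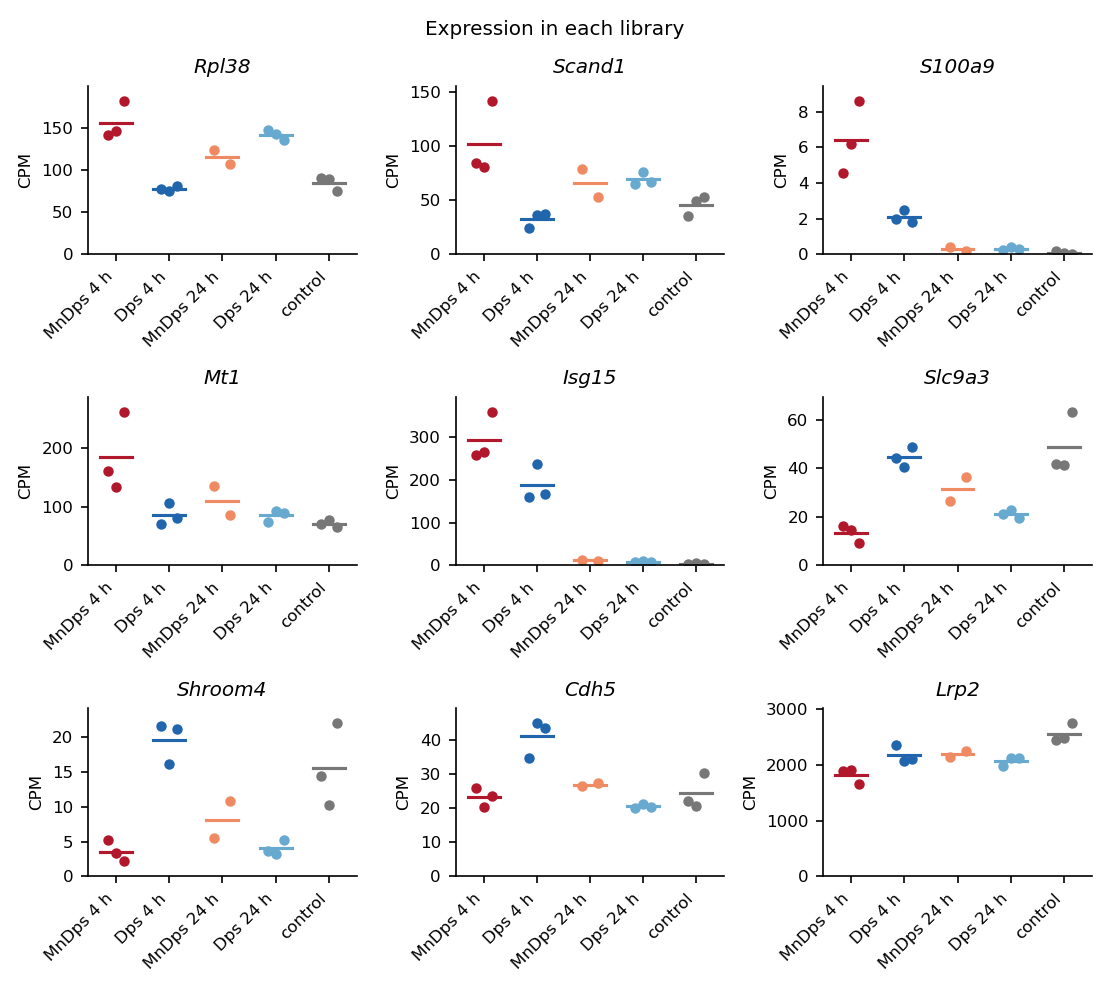
CPM of 9 genes (y, one panel each) in every library of the 5 groups (x): points are libraries, lines are group means. At 4 h, Slc9a3 and Shroom4 are lower and Rpl38, Scand1 and S100a9 higher in every MnDps library than in every Dps library, and Isg15 is far above vehicle with both proteins.

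The uptake machinery for filtered protein gave 7 higher and 12 lower of 31, and 6 higher and 5 lower in all 3 fits. Megalin itself depended on the length correction. Lrp2 had 1881, 1908 and 1654 CPM in MnDps kidneys, against 2346, 2061 and 2106 CPM in Dps kidneys, and the log2 fold change of −0.26 ± 0.08, adjusted p = 0.0154, turned to 0.27 (adjusted p = 0.00793) and 0.26 (adjusted p = 0.00871) when corrected. Its longest transcript, of 15460 nt, lies in the longest class. Without the first Dps library the uncorrected value was −0.21 (adjusted p = 0.0683). Cubn was lower uncorrected (−0.40 ± 0.08) and missed the threshold after the corrections (0.14 and 0.13), so no direction held for either receptor.

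Amn, their partner at the membrane, had 184, 193 and 200.4 CPM in MnDps kidneys, against 110.2, 127 and 124 CPM in Dps kidneys and was higher in all 3 fits (log2 fold change 0.68 ± 0.11, adjusted p = 0.000241; 0.30 and 0.34 after the corrections). The clathrin light chains Clta (0.59 ± 0.08) and Cltb (0.55 ± 0.10), the adaptor subunit Ap2s1 (0.85 ± 0.11) and the albumin and IgG receptor Fcgrt (0.48 ± 0.08) were higher in all 3 fits as well. The endosomal chloride-proton exchanger Clcn5 had 17.2, 14.7 and 14.2 CPM in MnDps kidneys, against 32, 23.2 and 27.2 CPM in Dps kidneys and was lower (log2 fold change −0.84 ± 0.13, adjusted p = 0.000187; −0.35 and −0.34 after the corrections). The early endosome tether Eea1 (−0.83 ± 0.14) and the endosomal GTPase Rab5b (−0.43 ± 0.09) were lower too. In each of these 3 lower genes the libraries of the proteins did not overlap.

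Markers of later nephron segments were called in both directions, with no list moving one way. Thick ascending limb markers gave 3 higher and 2 lower of 16, and distal convoluted tubule markers 3 and 4 of 14. Principal cell markers gave 3 and 2 of 14 and intercalated cell markers 2 and 4 of 16. In lists this small, such counts are hard to tell from the shares of all genes tested (20.8 and 20.7 percent). Casr, the calcium-sensing receptor of the thick ascending limb, had 14.2, 14.9 and 11.8 CPM in MnDps kidneys, against 25.7, 23 and 31 CPM in Dps kidneys, fully apart (log2 fold change −0.95 ± 0.18, adjusted p = 0.000865), and was the only one of 16 markers of that limb called in all 3 fits. In the distal convoluted tubule, Klhl3, which targets WNK kinases for breakdown (−1.11 ± 0.20), and the calcium channel Trpv5 (−0.61 ± 0.14) were lower, while the kinase Stk39 was higher by 0.32 ± 0.10. The Stk39 call was lost without any one of 4 libraries, with adjusted p from 0.0532 to 0.121.

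In intercalated cells, which pump acid, the proton pump subunit Atp6v1g3 had 62.1, 63.9 and 77.4 CPM in MnDps kidneys, against 41.8, 46.6 and 39 CPM in Dps kidneys (log2 fold change 0.67 ± 0.10, adjusted p = 0.00013). The pump subunit Atp6v0a4 (−0.32 ± 0.08) and the oxoglutarate receptor Oxgr1 (−0.60 ± 0.09) were lower, and all 3 genes were called in all 3 fits. The water channel Aqp2 of principal cells had 239, 277 and 376 CPM in MnDps kidneys, against 136, 180 and 169.6 CPM in Dps kidneys, higher uncorrected (0.88 ± 0.23), not past the threshold after the corrections and 0.65 (adjusted p = 0.0682) without the third MnDps library. Of 14 principal cell markers, 0 were called in all 3 fits.

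Tubule injury genes were higher for 11 and lower for 1 of 30, with a median of 0.40, which the corrections brought to 0.15 and 0.12. Without the first Dps library 7 were higher. Clu, a secreted chaperone of injured tubules, had 466, 515 and 484 CPM in MnDps kidneys, against 274, 345 and 325 CPM in Dps kidneys and was higher in all 3 fits (log2 fold change 0.64 ± 0.12, adjusted p = 0.000514; 0.37 and 0.42 after the corrections). Lgals3, a galectin, was the other (0.58 ± 0.10). The best known injury markers did not pass. Havcr1 had 6.21, 4.08 and 4.78 CPM in MnDps kidneys, against 3.8, 4.81 and 3.42 CPM in Dps kidneys, with overlapping libraries (log2 fold change 0.31 ± 0.32, adjusted p = 0.465), and Lcn2 had 59.5, 37.2 and 129 CPM in MnDps kidneys, against 27.9, 52 and 50.2 CPM in Dps kidneys, where the third MnDps library was highest (log2 fold change 0.80 ± 0.46, adjusted p = 0.198, and 0.14 without that library, adjusted p = 0.834).

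Of 24 endothelial markers, 5 were higher and 6 lower, near the shares of all genes tested (20.8 and 20.7 percent), and 0 and 2 in all 3 fits; without the third MnDps or the first Dps library 1 was higher. Cdh5, the cadherin that joins endothelial cells, had 25.8, 20.3 and 23.4 CPM in MnDps kidneys, against 34.8, 44.8 and 43.4 CPM in Dps kidneys, without overlap (log2 fold change −0.82 ± 0.13, adjusted p = 0.000215; −0.75 and −0.67 after the corrections). The vehicle kidneys, at 22, 20.7 and 30.3 CPM, lay at the level of the MnDps kidneys. Sox18, a transcription factor of vessels (−0.56 ± 0.15), and Kdr, a receptor for VEGF (−0.65 ± 0.12), were lower, although Kdr missed the threshold with the principal transcript (adjusted p = 0.0851).

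Of 17 podocyte markers, 1 was higher and 8 lower. The 4 lower in all 3 fits were Clic5, an ezrin-bound protein of foot processes, with 109, 109 and 96.1 CPM in MnDps kidneys, against 168, 177 and 146 CPM in Dps kidneys (log2 fold change −0.65 ± 0.08, adjusted p = 7.12e-05), the transcription factor Dach1 (−1.08 ± 0.19), the growth factor Vegfa (−0.34 ± 0.10) and, named only after its values were seen, the podocyte transcription factor Wt1 (−0.44). Among 23 fibroblast and pericyte markers, 1 was higher and 8 lower, and between 2 and 5 were lower without any one of the MnDps libraries or the second Dps library. Rgs5, a pericyte signalling regulator, had 5.17, 5.75 and 4.25 CPM in MnDps kidneys, against 11.1, 13.6 and 12.7 CPM in Dps kidneys and was lower in all 3 fits (log2 fold change −1.30 ± 0.19, adjusted p = 0.000102; −1.11 and −1.01 after the corrections). Desmin (Des) was higher by 0.49 ± 0.16, but by 0.19 (adjusted p = 0.238) without the third MnDps library. The summed CPM of the podocyte list was 1166 to 1204 in MnDps kidneys, 1385 to 1444 in Dps kidneys and 1389 to 1476 in vehicle kidneys.

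Antioxidant enzymes were mostly higher in MnDps kidneys, for 17 of 23 genes with 1 lower and a median log2 fold change of 0.42, and for 7 with 1 lower in all 3 fits. These are also short transcripts, with a list median of 1826 nt, and the corrections brought the median to 0.16 and 0.15. Sod1, the copper and zinc superoxide dismutase, had 848, 865 and 1141 CPM in MnDps kidneys, against 532, 556 and 553 CPM in Dps kidneys, without overlap (log2 fold change 0.80 ± 0.10, adjusted p = 7.12e-05; 0.91 and 0.27 after the corrections). Sod2, the manganese superoxide dismutase of mitochondria, had 361, 368 and 395 CPM in MnDps kidneys, against 322, 307 and 311 CPM in Dps kidneys, and its small rise of 0.26 ± 0.07, adjusted p = 0.00564, was larger after the corrections (0.65 and 0.71). The peroxiredoxins Prdx1 (0.48 ± 0.07) and Prdx2 (0.59 ± 0.08) and the lipid peroxidase Gpx4 (0.67 ± 0.10) were higher in all 3 fits, and Gpx1 (0.61 ± 0.09) only uncorrected. Catalase (Cat) was lower (−0.24 ± 0.08), a call lost without the first or the third Dps library (adjusted p = 0.0679 and 0.0657).

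Of 28 NRF2 targets, 10 were higher and 2 lower, 4 higher in all 3 fits: the glutathione transferase Gsta3 (0.85 ± 0.14), the transketolase Tkt (0.40 ± 0.09), the sulfiredoxin Srxn1 (0.36 ± 0.08) and Prdx1. Hmox1, which breaks down heme, had 97.8, 97.3 and 95.5 CPM in MnDps kidneys, against 75.1, 84 and 87 CPM in Dps kidneys and did not pass (0.24 ± 0.23, adjusted p = 0.434), though both proteins lay above vehicle at 26.6, 57.2 and 45.2 CPM. In the integrated stress response, 7 of 28 were higher and 1 lower, with Atf4, its transcription factor (0.55 ± 0.12, and 0.37 without the third MnDps library), the seryl-tRNA synthetase Sars (0.45 ± 0.08) and the serine synthesis enzyme Psat1 (0.45 ± 0.10) higher in all 3 fits. Ern1, the endoplasmic reticulum stress sensor IRE1, had 6.95, 5.59 and 3.91 CPM in MnDps kidneys, against 14.8, 12.6 and 12.5 CPM in Dps kidneys and was lower (log2 fold change −1.28 ± 0.20, adjusted p = 0.000179). The oxygen-regulated factor Hif1a (−0.84 ± 0.11), the p53-induced ribonucleotide reductase subunit Rrm2b (−0.77 ± 0.10) and the glucocorticoid target Klf9 (−0.90 ± 0.14) were lower. These are single genes, and the lists went both ways. Endoplasmic reticulum stress genes gave 6 higher and 7 lower of 26, and hypoxia and glycolysis genes 3 and 4 of 23. For p53 targets the counts were 5 higher and 2 lower of 22, and for glucocorticoid responsive genes 3 and 1 of 17.

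Lysosomal and autophagy genes were higher for 20 and lower for 6 of 40 genes, 12 and 2 in all 3 fits, and 11 were higher without the third MnDps or the first Dps library. The protease cathepsin D (Ctsd) was higher by 0.43 ± 0.07, the cholesterol carrier Npc2 by 0.51 ± 0.10 (0.33 without the third MnDps library) and the membrane protein Cd63 by 0.58 ± 0.08, while the peptidase Tpp1 was lower (−0.51 ± 0.09). Fatty acid oxidation genes were higher for 16 and lower for 6 of 42 (2 without the first Dps library), with 7 and 1 in all 3 fits. Acot1, a thioesterase induced by PPAR-alpha, had 208, 178 and 153 CPM in MnDps kidneys, against 98, 87.4 and 107 CPM in Dps kidneys (log2 fold change 0.89 ± 0.16, adjusted p = 0.000657); it has a near-identical neighbour, so its counts are uncertain. Etfb (0.78 ± 0.11), Decr1 (0.48 ± 0.09), Acaa1a (0.55 ± 0.10) and Cpt2 (0.45 ± 0.08), enzymes of beta oxidation and its electron transfer, were higher. Etfb and Ctsd share 53 and 34.4 percent of their exon bases with other genes of the same strand. Of 25 cholesterol synthesis genes, 4 were higher (7 without the second Dps library) and 4 lower, with Pmvk (0.83 ± 0.13) and Ebp (0.61 ± 0.08), enzymes of the pathway, higher and its regulator Srebf2 (−0.53 ± 0.11) and the carrier Stard4 (−0.90 ± 0.17) lower.

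By 24 h little of the difference was left past the threshold. There, 22 genes were higher and 99 lower in MnDps than in Dps kidneys (0.148 and 0.666 percent, together 0.815 percent), from 2 MnDps and 3 Dps libraries. The difference between the times was itself tested: for 2334 genes (15.7 percent) MnDps minus Dps was higher at 4 h than at 24 h, and for 2034 (13.7 percent) lower, together 29.4 percent. With the longest-transcript correction these were 1660 and 644 (11.2 and 4.34 percent). Length was tied to the 24 h difference with rho 0.209 across genes, opposite in sign to 4 h.

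For 76 of 78 ribosomal genes MnDps minus Dps was higher at 4 h than at 24 h, as it was for 65 of 68 respiratory and 28 of 36 proteasome genes, and it was lower for 0 genes of these 3 lists. The list medians were 0.78, 0.68 and 0.52 at 4 h and −0.15, −0.22 and −0.11 at 24 h. Slc9a3 had 26.7 and 36.7 CPM in MnDps kidneys and 21.2, 22.7 and 19.6 CPM in Dps kidneys at 24 h, a log2 difference of 0.59 ± 0.23, adjusted p = 0.22, and the times differed by −2.31 ± 0.31, adjusted p = 0.000458. Shroom4 had 5.49 and 10.8 CPM and 3.68, 3.18 and 5.26 CPM in MnDps and Dps kidneys at 24 h, and the times differed by −3.48 ± 0.54, adjusted p = 0.000924. Interferon genes had a median difference of 0.45 at 24 h, where 3 of 52 were higher in MnDps kidneys, against 0.148 percent of all genes tested. For 16 of the 52 MnDps minus Dps was lower at 4 h than at 24 h, and for 0 it was higher, uncorrected. The shares of all genes tested were 13.7 and 15.7 percent.

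**Figure D5:**
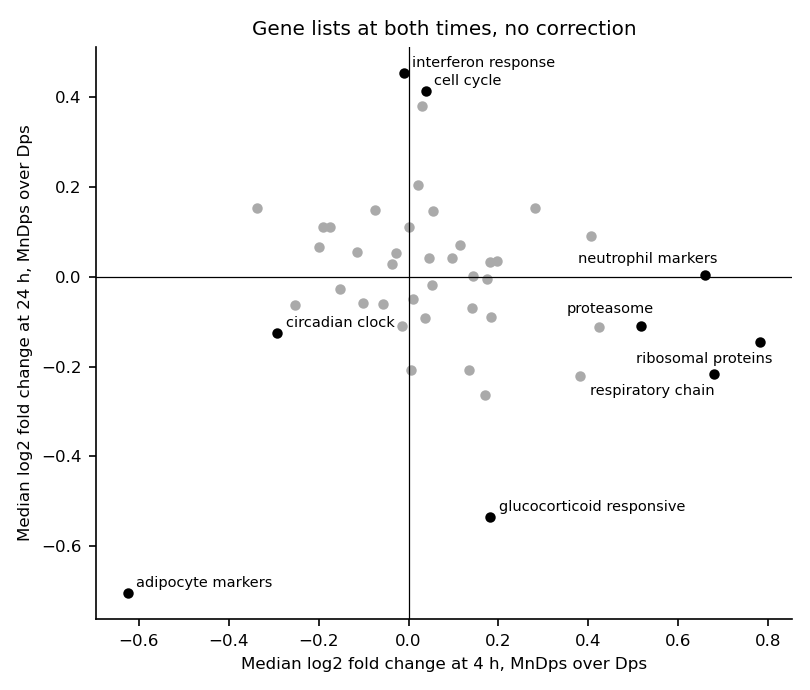
Median log2 fold change of MnDps over Dps for each gene list at 4 h (x) and 24 h (y), uncorrected; black points are named in the plot. Ribosomal, respiratory and proteasome genes lie far to the right, at 0.78, 0.68 and 0.52 at 4 h, and below 0 at 24 h, while interferon genes lie near 0 at 4 h and at 0.45 at 24 h.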

How the data were processed

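Whole kidney RNA was sequenced from 14 libraries, 6 of them compared here. Per the labels' protocols, snap-frozen kidneys gave RNA with removal of genomic DNA, and stranded mRNA libraries were read as 75-base pairs. The authors deposited raw counts per gene symbol, and the submitters' processing notes name STAR, featureCounts and mm10 without versions or the strand setting. Of 24421 genes, 9567 with low counts were removed (edgeR's filterByExpr by group). Counts were scaled by TMM and tested with edgeR 4.0.16 in R 4.3.3, by its robust quasi-likelihood test on 5 group means (BCV 10.7 percent, 9 residual degrees of freedom), with Benjamini-Hochberg adjustment over all 14854 genes, and values after ± are standard errors. CPM values are the deposited counts over the TMM-scaled library totals, so depth, 15097093 to 42074942 counts per library, sets the precision at low levels. The length and GC correction subtracts each library's spline trend, using GENCODE M21 transcripts (GRCm38, the build called mm10) for the 99.3 percent of genes with a length; genes without one were left uncorrected.

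Genes named are the 15 largest rises and 15 largest falls (at least 1 CPM in the higher group, no overlap, past the threshold also with the longest-transcript correction), up to 6 members of each of 46 lists with the smallest adjusted p in each direction, 15 fixed genes of metal handling, injury and uptake, and the 5 largest differences between the times in each direction. Of the largest falls, 1 is not reported here. Members and lists were chosen with earlier results of these data known. The fit was tested on simulated counts. Alternatives were DESeq2 1.42.0, limma 3.58.1 with voom, other scaling and filters, depth, and each library left out. Mitochondrially encoded genes were not analysed here.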

Additional observations from a re-analysis of the deposited data

Results flagged for a closer look

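The difference between MnDps and Dps kidneys at 4 h was set against the same difference at 24 h by a test of the difference itself, edgeR's quasi-likelihood interaction with Benjamini-Hochberg adjustment. It was higher at 4 h for 2334 genes and lower for 2034. The 24 h side rests on 2 MnDps libraries, and 2724 genes in all were called without the second of them.

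The 5 largest positive differences between the times were those of Mir703 (2.56 on the log2 scale), Gadd45g (2.34), Eva1c (2.25), 5730408K05Rik (2.21) and Erdr1 (1.97). Mir703 was lower in MnDps kidneys at both times, with a log2 fold change of −0.87 ± 0.34 at 4 h, a call lost on leaving out any one of the 4 h libraries other than the second MnDps library, and of −3.44 ± 0.47, adjusted p = 0.00437, at 24 h, so its positive value comes from the larger fall at 24 h. It is a microRNA locus that libraries of polyadenylated RNA do not capture as the mature form. Gadd45g, a stress-induced growth arrest gene, had 57.1, 35 and 62.2 CPM in MnDps kidneys, against 19.8, 18 and 19.5 CPM in Dps kidneys at 4 h, and 78.5 and 36.9 CPM and 68.4, 134 and 121 CPM in MnDps and Dps kidneys at 24 h. Erdr1 belongs to a locus with near-identical copies, so its counts are uncertain.

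The 5 largest negative ones were those of Itga2 (−3.88), Shroom4 (−3.48), Zbed6 (−3.34), Zfp366 (−3.24) and Hhip (−3.06). Shroom4, Zbed6 and Zfp366, with Eva1c among the positive ones, kept their direction and their call in 21 of 21 other settings. Mir703 and Gadd45g kept the call in 20 of 21, Itga2 in 15 of 21, Erdr1 in 9 of 21, Hhip in 9 of 20 and 5730408K05Rik in 7 of 19, and none of these changed sign. Hhip rests on 0, 0 and 0.386 CPM in MnDps kidneys and 0.661, 0.362 and 0.542 CPM in Dps kidneys at 4 h, and Itga2 on 1.04, 0.233 and 0.482 CPM against 2.6, 0.531 and 2.87 CPM, at which depth single reads count.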

How the results depend on the processing

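Against 6158 genes called at 4 h, the count was 3629 with the length and GC correction, 3286 with the principal transcript, 3558 with a term for the deeper libraries and 2754 with those libraries left out, which leaves 1 Dps library at 4 h that is assumed to vary like the other groups. Higher genes numbered 1982 with the principal transcript, 1882 with the depth term and 1437 without the deeper libraries. Lower genes numbered 1431 with the length correction, 1304 with the principal transcript, 1676 with the depth term and 1317 without the deeper libraries. The interaction called 2304 and 2214 genes with the corrections and 2391 without the deeper libraries. Leaving out one library gave 4670 to 5948 calls, 2152 to 2925 higher and 2518 to 3023 lower, and 2724 to 4598 in the interaction. DESeq2 (6214), voom (6306), the 6 libraries alone (5543), thinning to the smallest total (5685), median-of-ratios scaling (6158) and no filter (5838) moved the total little. Of 136 calls among the named genes, 109 were kept with the length correction, 102 with the principal transcript, 88 without the deeper libraries and 118 without the third MnDps library. Signs turned, corrected and with the principal transcript, for Slc30a1 (0.18 and 0.23), Slc39a14 (0.089 and 0.15), Tfrc (0.055 and 0.15), Lrp2 (0.27 and 0.26), Cubn (0.14 and 0.13) and Hmox1 (−0.086 and −0.038), and for Samd9l with the principal transcript (0.00070). Without the deeper libraries Slc39a14 (0.11), Tfrc (0.061) and Cd163 (0.37) turned. Slc39a8 turned without the first or second MnDps library (−0.066 and −0.0015) or the third Dps library (−0.0041), and ranged up to 0.12 without the third MnDps library. The cause of the moves with depth was not tested: 2 of the 3 Dps and 0 of the 3 MnDps libraries are deep, so depth is partly tied to the protein. No paired analysis was possible because the labels carry no replicate numbers. At low counts, single reads limit the genes under about 1 CPM.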

Other observations

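Of 23 circadian clock genes, 0 were higher and 9 lower in MnDps than in Dps kidneys at 4 h, with a median log2 fold change of −0.29 (−0.17 and −0.083 after the corrections), and 1 was lower in all 3 fits. Of 16 adipocyte markers, 0 were higher and 2 lower, 0 of them in all 3 fits, with a median log2 fold change of −0.62 (−0.72 and −0.71 after the corrections). Their summed CPM was 7397 to 8833 in MnDps kidneys and 6412 to 8829 in Dps kidneys. The list includes Pck1, which is also on the proximal tubule list, so this sum does not stand for fat cells alone. Of 26 heat shock protein genes, 3 were higher and 0 lower (2 higher in all 3 fits). Of 18 gluconeogenesis genes, 1 was higher and 5 lower, and of 20 complement genes, 4 were higher and 1 lower. Markers of T and NK cells gave 0 higher and 1 lower of 15, of B cells 0 and 0 of 5 and of dendritic cells 1 and 1 of 18. Genes listed at 0 in all 6 libraries included the hemoglobin genes Hba-a1, Hba-a2, Hbb-bs and Hbb-bt, the renin gene Ren1 and the ribosomal gene Rpl26, which every cell uses, so a 0 in this table does not show absence of the transcript.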
